A study of Mus musculus with 2 samples.

Results

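Interferon-stimulated antiviral genes and interferon-inducible GTPases were followed in mouse CD8+ T cells compared after 1 and after 2 rounds of stimulation. The list holds 44 names, and a member was measured where a probe annotated to exactly 1 symbol matched it and had a value on both arrays. This gave 37 genes on 38 probes, out of 14150 genes and 21427 probes with 2 values in all. The names without such a probe were Oas2, Oas3, Oasl1, Ifi44, Xaf1, Ifi203 and Ifngr2, which were not analysed here. Class I antigen presentation genes were not members.

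The cells were effector CD8+ T cells of the pmel transgenic mouse, in which the T cell receptor transgene recognises the melanocyte protein gp100. The RNA from cells after the first stimulation was in channel 1 and RNA from cells after the second was in channel 2, and the pair was hybridised on 2 arrays, of which one is labelled a repeat. These arrays are the only group. Both sides of the comparison were therefore pmel cells stimulated in culture, and no unstimulated sample was part of it. Whether cells without the transgene were present was not tested. The labels used here do not give the number of mice, the cytokines in the medium, the hours after stimulation, the dyes, or whether the repeat used fresh RNA. The spread between the arrays may therefore be technical.

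Each value is a log2 ratio of the channels, with base 2 assumed. The numerator is not stated. Because titles and channel numbers both list the cells after 1 stimulation before the others, a positive value likely stands for more RNA after 1 stimulation and a negative value for more after 2, and the sides would swap with the other order. Values are given below by side. In these bulk samples fewer cells expressing a gene and less of its RNA per cell cannot be told apart. Ratios carry no level, so whether a gene was expressed at all, and whether the T cell markers were present, could not be read from them.

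Interferons are cytokines of antiviral defence. Type I interferons bind a receptor made of IFNAR1 and IFNAR2, and interferon gamma, a product of effector CD8+ T cells themselves, binds IFNGR1 and IFNGR2. Janus kinases on these receptors phosphorylate STAT proteins. After type I interferon, STAT2 joins IRF9 in a complex that binds the interferon-stimulated response element (ISRE), while STAT proteins activated by interferon gamma bind the gamma-activated site (GAS). The induced genes encode proteins that block viral RNA and protein synthesis, sense foreign nucleic acid, or, as GTPases, act on the membranes around intracellular pathogens.

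As a group the members lay on the positive side. Of the 37 genes, 23 were positive on both arrays, or 62.2%, where the share over all genes was 29.6%. On both arrays 4 were negative, or 10.8%, against 33.6% of all genes, and the other 10 changed side between arrays or read 0 on 1 of them. The median log2 ratio was 0.485 over the members, with 0.37 on array 1 and 0.52 on array 2, and -0.02 over all genes. The means ran from -1.10 for Irf8 to 2.01 for Tgtp1.

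At least 1.5-fold on both arrays, a log2 ratio of 0.585 or more, was met on the positive side by 6 members, namely Tgtp1, Isg15, Oas1a, Ifit1, Trim25 and Irf9. Over all genes 1.24% met that rule. On the negative side it was met by 1 member, Irf8, and by 3% of all genes. A 2-fold difference on both arrays was reached by Tgtp1, Isg15 and Oas1a on the positive side, a rule met by 0.233% of all genes, and by 0 members on the negative side, where the share of all genes was 0.721%.

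In limma's moderated test against a ratio of 1, with Benjamini-Hochberg adjustment over 21427 probes, 0 of the 38 member probes passed 0.05, as did 0% of all probes. The members' adjusted p-values in limma lay between 0.162 and 0.988. At an unadjusted limma p under 0.05 there were 20 member probes, 19 of them positive and 1 negative. Over all probes 14.9% lay under it, 6.87% positive and 8% negative. A robust variance prior likewise called 0 member probes. Without moderation, when each probe is judged by its own 2 values, 0 member probes were called, against 241 probes or 1.12% of the whole table. At an unadjusted p under 0.05 that setting gave 2 member probes, against 7.16% of all probes. Single genes are therefore described by their size and by how the arrays agree. The 95% confidence interval of a member probe's mean extended a median of 0.451 on each side.

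**Figure D1:**
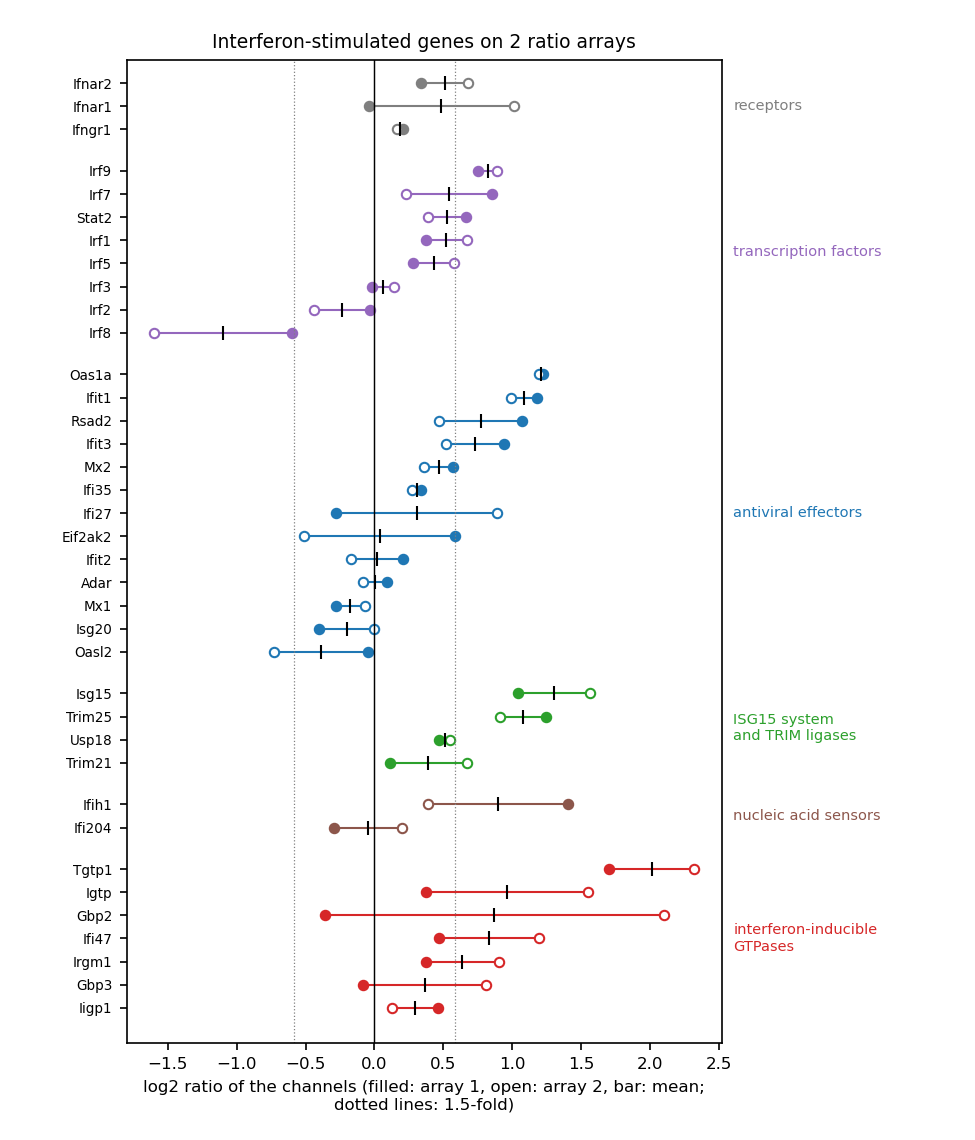
Log2 ratio of the channels for the 37 measured members, ordered by role and by mean, with array 1 filled, array 2 open and a bar at the mean. Most points lie right of 0, Tgtp1 lies farthest right at 1.70 and 2.32, and Irf8 lies farthest left at -0.60 and -1.60.

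Of the 3 measured receptor chains, Ifnar2 and Ifngr1 were positive on both arrays. Ifnar2, a chain of the type I interferon receptor, read 0.34 on array 1 and 0.68 on array 2. Ifnar1, its partner chain, read -0.04 and 1.01, so the arrays did not agree on a side. Ifngr1, the ligand-binding chain for interferon gamma, read 0.21 and 0.16. The median of these 3 genes was 0.485, with 0.21 on array 1 and 0.68 on array 2.

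Among the transcription factors, the members that serve the ISRE-binding complex were positive on both arrays. Irf9, its DNA-binding part, read 0.75 and 0.89, a mean of 0.82 ± 0.10 (SD, n = 2) and a 1.77-fold difference. Stat2 read 0.66 and 0.39. Irf7, which amplifies type I interferon production, read 0.85 and 0.23. Irf1, an early target of interferon gamma signalling, read 0.37 and 0.67, and Irf5, which acts downstream of Toll-like receptors, 0.28 and 0.58. Both arrays placed these genes above 0, and the size differed most for Irf7.

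The remaining interferon regulatory factors behaved differently. Irf3, which is present before infection and is activated by phosphorylation, read -0.02 and 0.14. Irf2, an antagonist of Irf1 at shared sites, was negative at -0.03 and -0.44. Irf8, a factor of myeloid and B cell development that activated T cells also express, stood at -0.60 and -1.60, a mean of -1.10 ± 0.71 (SD, n = 2) and a 2.14-fold difference. From the bottom of 14150 genes it ranked 150, while Irf9 ranked 184 from the top. The 8 factors had a median of 0.475, and the arrays placed 5 of them above 0 and 2 below it.

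Antiviral effectors held the closest agreement between arrays as well as open disagreement. Oas1a, an enzyme that makes the oligoadenylate activating RNase L, read 1.22 and 1.19, a mean of 1.21 ± 0.02 (SD, n = 2) and a 2.31-fold difference. Ifit1, which binds viral RNA caps, read 1.18 and 0.99, or 1.08 ± 0.13 (SD, n = 2). Ifit3, a partner of Ifit1, followed at 0.94 and 0.52. Ifit2, of the same family, read 0.21 and -0.17 and so had no common side. In RefSeq's gene order Ifit2 and Ifit3 are adjacent, and 3 protein-coding genes lie between Ifit3 and Ifit1. Neighbouring genes of this cluster thus read different ratios, and the difference between them was not tested.

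The further effectors were mixed, with Rsad2, Mx2 and Ifi35 positive on both arrays, Mx1 and Oasl2 negative on both, and the others without a common side. Rsad2, the gene of viperin, which makes a chain-terminating nucleotide, read 1.07 and 0.47. Mx2, a dynamin-like GTPase, read 0.57 and 0.36, whereas its relative Mx1 read -0.28 and -0.07. Many laboratory mouse strains carry defective Mx1 alleles, and the strain of these mice is not given. A part of Mx alleles in either ratio was not tested. Ifi35 read 0.34 and 0.27. The kinase gene Eif2ak2, whose product PKR halts translation, was measured by 2 probes. They read 0.59 and 0.58 on array 1 but -0.28 and -0.74 on array 2, so the probes agreed and the arrays did not. Ifi27 changed side the other way, with -0.28 and 0.89. Adar, an RNA-editing enzyme, was close to 0 at 0.09 and -0.08. The exonuclease gene Isg20 read -0.40 and 0.00, and Oasl2, an OAS-like gene with ubiquitin-like domains, -0.05 and -0.73. The median of the 13 measured effectors was 0.305, with 6 above 0 on both arrays and 2 below.

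All 4 genes of the ISG15 and TRIM set lay above 0 on both arrays. Their median was 0.793. Isg15, a ubiquitin-like protein that is attached to other proteins, read 1.04 and 1.56, a mean of 1.30 ± 0.37 (SD, n = 2) and a 2.46-fold difference. Usp18, the protease that removes ISG15 and also restrains the type I receptor, read 0.47 and 0.55. Trim25, a ubiquitin ligase that assists the RNA sensor RIG-I, read 1.24 and 0.91, or 1.07 ± 0.23 (SD, n = 2). Trim21, a cytosolic antibody receptor and ligase, read 0.11 and 0.67. The conjugate and its protease were thus on the same side.

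Of the sensors, Ifih1, the gene of the RNA sensor MDA5, read 1.40 and 0.39. Ifi204, a DNA-binding protein of the HIN family, read -0.29 and 0.20, with no common side.

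The interferon-inducible GTPases included the member with the highest ratio. Tgtp1 read 1.70 and 2.32, a mean of 2.01 ± 0.44 (SD, n = 2) and a 4.03-fold difference, and ranked 8 from the top of 14150 genes. Its limma adjusted p of 0.162 was the lowest among the members, shared with Oas1a and Ifit1. Igtp, also of the immunity-related GTPase family, read 0.37 and 1.55. Ifi47 read 0.47 and 1.19, Irgm1, a regulator of that family, 0.37 and 0.90, and Iigp1 0.46 and 0.13. Each of these 5 genes was positive on both arrays.

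Both guanylate-binding proteins, which coat pathogen vacuoles, were positive on array 2 only. Gbp2 read -0.36 on array 1 and 2.10 on array 2, and Gbp3 read -0.08 and 0.81. The mean of 0.87 for Gbp2 had an SD of 1.74 (n = 2), and rests wholly on array 2. Over the 7 GTPases the median was 0.83, with 0.37 on array 1 and 1.19 on array 2.

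Several members belong to families of close relatives. Tgtp2, which lies between Tgtp1 and Ifi47 in RefSeq's gene order and is nearly identical to Tgtp1, had no probe with a single symbol. The Tgtp1 value may therefore stand for either gene. The same limit applies to Oas1a, Ifit1 and Ifit3, whose relatives Oas1b, Oas1c, Oas1g, Ifit1bl1 and Ifit3b also had none. The specificity of these probes was not tested.

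**Figure D2:**
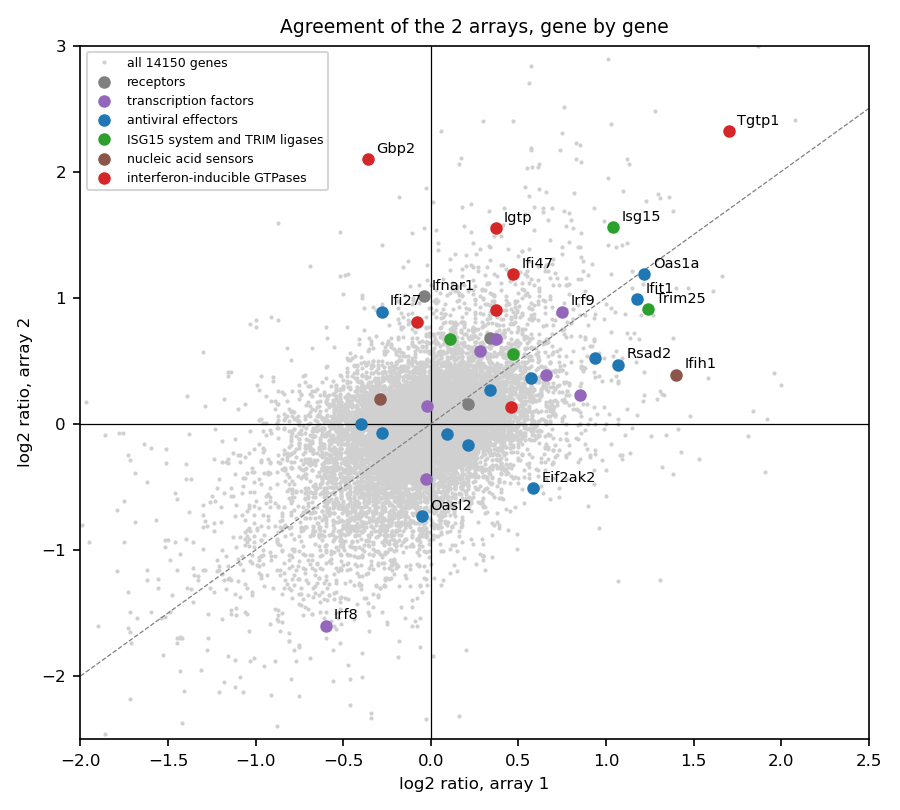
Log2 ratio on array 1 (x axis) and array 2 (y axis) for all 14150 genes in grey and the 37 members coloured by role. The dashed line marks equal values, and Oas1a lies on it while Gbp2 (-0.36 and 2.10) lies far above it and Eif2ak2 (0.59 and -0.51, the mean of its 2 probes) far below.

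The arrays agreed on the side for 73.0% of the members, against 63.2% of all genes. Across the 37 members, which share the same RNA and are not replicates, Pearson's r between arrays was 0.442 and Spearman's rho was 0.394. Over all 14150 genes these were 0.519 and 0.444. The SD of the difference between arrays was 0.709 among the members and 0.416 over all genes, so a member's ratio repeated less closely in absolute terms.

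That difference was not spread evenly over the roles, a pattern chosen after the values were seen. Of the 7 GTPases 6 were higher on array 2, with Iigp1 the exception, where 47.9% of all genes were higher on array 2. Their median difference was 0.72. Of the 13 antiviral effectors 3 were higher on array 2, namely Ifi27, Isg20 and Mx1, and the median difference was -0.19. The GTPase count was 6 under each scaling tried, and the effector count was 3 or 4. Each GTPase had 1 probe, so the probe rules could not change the GTPase count. Over all genes the median difference was -0.01. Higher values on array 2 were not particular to the GTPases. Of the cell type markers described below, 8 of 11 for T cells and 8 of 12 for B cells were higher on array 2. For dendritic cells this held for 5 of 7, for macrophages and monocytes 8 of 14, for CD4 T cells 3 of 4 and for natural killer cells 3 of 6. Of the 31 further interferon-induced genes described below, 10 were higher on array 2. Among these were Irgm2 (0.21 and 1.05) and Gbp4 (-0.05 and 0.62), relatives of the member GTPases. With 1 array on each side, the difference between the roles has no test.

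**Figure D3:**
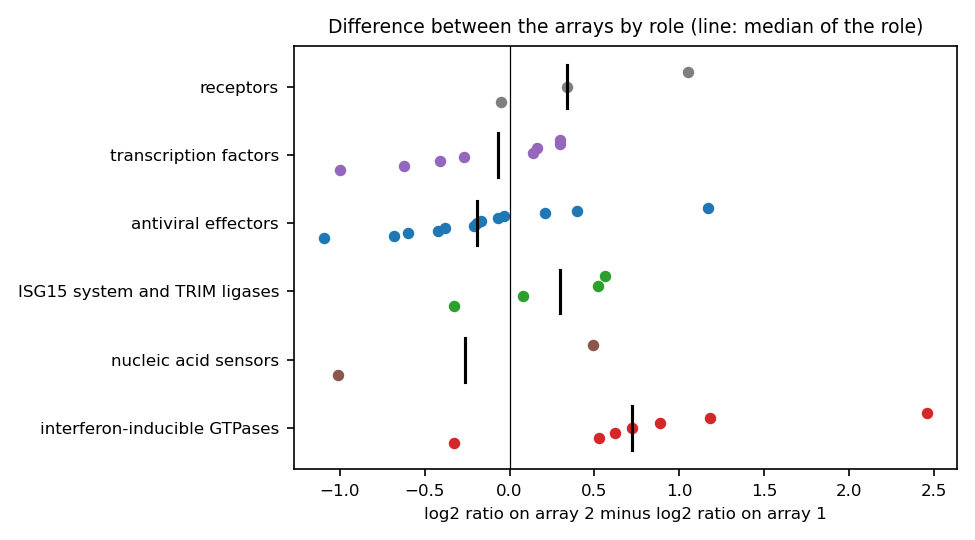
Log2 ratio on array 2 minus that on array 1 for each member (points), by role, with a line at the median of the role. The GTPases lie mostly right of 0 with a median of 0.72, and the antiviral effectors mostly left of it with a median of -0.19.

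Promoter sequence was then described. The list names known interferon-stimulated genes, so a raised share of interferon motifs can follow from that choice. The motif shares are therefore a description of the list and not a result of these arrays. RefSeq promoter windows (build GRCm38.p6) of 300 bases, from 250 before the transcription start to 50 from it onward, were found for 37 of the 44 listed names, as 47 windows, 8 genes having several. Mx1, Mx2, Oas2, Ifi27, Ifi204, Usp18 and Iigp1 had no entry. In 23 of the 47 windows the start used was also the gene's first base in the RefSeq gene annotation. Distances and the absence of a match hold only for the starts used. The ISRE core was searched as GAAANNGAA and the gamma-activated site as TTCNNNGAA, on both strands. No core match shared a base with a gamma-activated site match in these windows (0 of 34). A match is a run of letters and not a bound site.

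The ISRE core stood in the windows of 20 of these 37 genes, or 54.1%, and of 9.76% of all 27025 genes in the table. By single windows the shares were 42.6% and 8.56%. Gamma-activated site letters stood in 13 of the 37, or 35.1%, against 9.55% of all genes. Of the 34 core matches, 23 lay within 150 bases before the start. That zone is a large part of the 300-base window, and the share over all promoters was not computed. The count is therefore not read as a result about the members. By role, the core was found in 5 of 6 GTPase genes, 8 of 14 effectors, 3 of 3 of the ISG15 and TRIM set, 2 of 2 sensors, 2 of 8 transcription factors and 0 of 4 receptors.

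The core was present in 5 of the 6 members at least 1.5-fold positive on both arrays, and Irf9 had no match. The stretches around it are shown because they let the spacing and number of copies be compared. They are read on the strand of the gene, with core letters of either strand in capitals, so that a core on the opposite strand appears as TTCNNTTTC. They lie at chr11:48992290-48992348, minus strand (Tgtp1), chr4:156200851-156200921, minus strand (Isg15), chr5:120907506-120907570, minus strand (Oas1a), chr19:34640755-34640838, plus strand (Ifit1) and chr11:88999369-88999427, plus strand (Trim25).
Tgtp1: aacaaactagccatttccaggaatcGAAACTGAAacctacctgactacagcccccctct
Isg15: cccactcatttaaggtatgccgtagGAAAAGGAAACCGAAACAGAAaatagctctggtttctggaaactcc
Oas1a: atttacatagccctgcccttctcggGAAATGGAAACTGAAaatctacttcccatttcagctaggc
Ifit1: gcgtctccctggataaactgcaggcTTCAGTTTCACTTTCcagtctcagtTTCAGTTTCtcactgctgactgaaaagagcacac
Trim25: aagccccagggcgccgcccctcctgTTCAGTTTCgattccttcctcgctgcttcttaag

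Isg15 held 3 overlapping copies from 78 bases before the start, Ifit1 held 3 copies of which 2 overlapped, Oas1a held 2 overlapping copies and Tgtp1 and Trim25 held 1 each. The Tgtp1 window also held a gamma-activated site match that began 88 bases before the start, and the Oas1a window held one as well, 98 bases before the start.

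The other GTPases with a core match were Igtp (chr11:58199497-58199555, plus strand), Irgm1 (chr11:48871411-48871475, minus strand), Gbp2 (chr3:142620580-142620638, plus strand) and Gbp3 (chr3:142559975-142560039, plus strand). They are shown for comparison with Tgtp1, since these genes had their higher value on array 2.
Igtp: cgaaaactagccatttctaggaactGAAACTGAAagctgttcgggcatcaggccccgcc
Irgm1: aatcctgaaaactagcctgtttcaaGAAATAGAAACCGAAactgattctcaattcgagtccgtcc
Gbp2: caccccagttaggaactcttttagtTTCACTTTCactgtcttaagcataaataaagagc
Gbp3: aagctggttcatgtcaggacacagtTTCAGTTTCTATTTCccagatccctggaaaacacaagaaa

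For a comparison without gaps, 59 bases around the core match farthest upstream were taken from each gene, on the strand of that match. Where a gene held several copies this piece is shorter than the stretch printed. The fixed letters of the core are identical in every pair by construction and are counted in the identity. The Igtp and Tgtp1 pieces were identical at 38 of 59 bases, or 64.4%. Among the other 27 pairs formed from Igtp, Tgtp1, Irgm1, Gbp2, Gbp3, Isg15, Ifit1 and Oas1a, identity lay between 27.1% and 50.8%. Igtp also carried a gamma-activated site match upstream of its core, as Tgtp1 and Oas1a did. Ifi47, which had no core in its window, read 0.47 and 1.19.

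Among measured members with a window, the 17 with the core had a median log2 ratio of 0.77, with 0.66 on array 1 and 0.81 on array 2. The 14 without it had a median of 0.368, with 0.245 and 0.25. On both arrays 12 of the 17 and 8 of the 14 were positive. The ranges overlapped widely, from -0.23 to 2.01 with the core and from -1.10 to 0.83 without it. For the gamma-activated site the order was the opposite, with a median of 0.305 in 13 genes with a match and 0.683 in 18 without. Receptors and most transcription factors fall among the genes without the core, so motif and role cannot be told apart in this comparison.

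**Figure D4:**
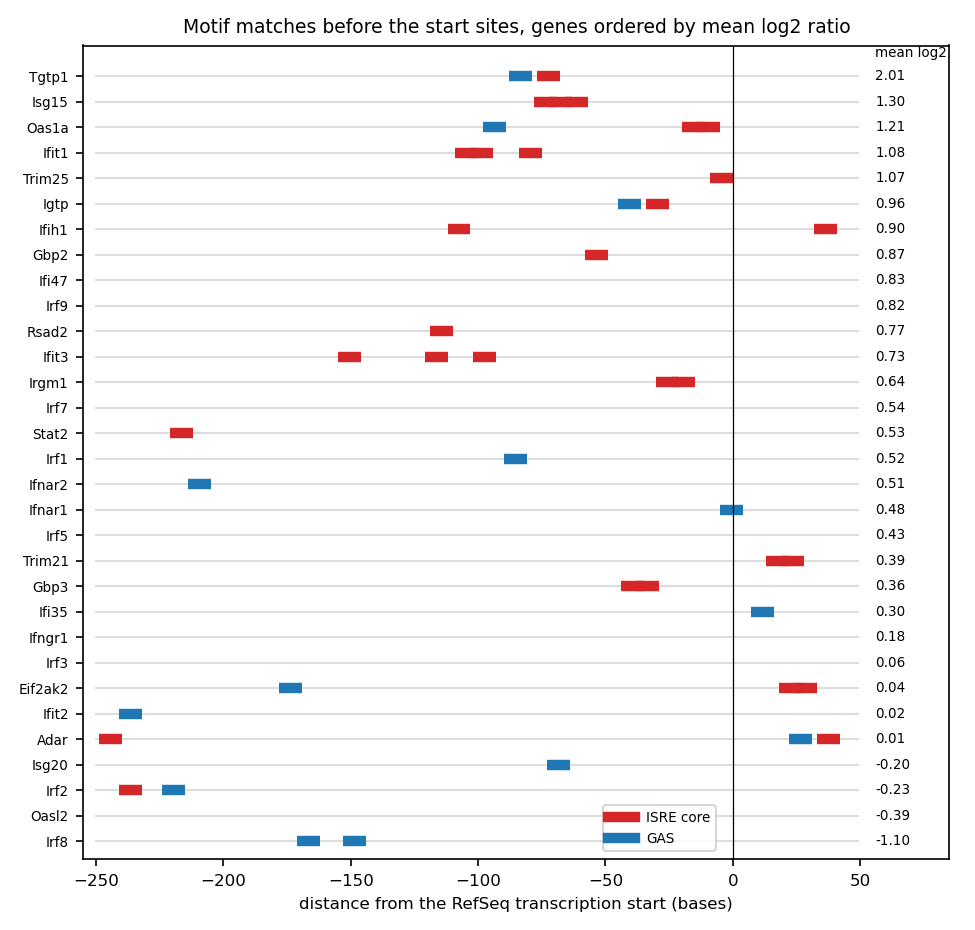
Positions of ISRE core (red) and gamma-activated site (blue) matches relative to the RefSeq transcription start, in bases, for the 31 measured members with a window, from the highest mean log2 ratio at the top to the lowest. Matches of all windows of a gene share its line, and the right margin gives the mean log2 ratio, from 2.01 for Tgtp1 to -1.10 for Irf8.

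Other genes of the interferon pathway, from a list chosen with earlier results of these data known, fell on both sides. Their median was 0.115, and of the 62 measured 29 had positive values on both arrays and 13 negative values. These are 46.8% and 21.0%, against 29.6% and 33.6% of all genes. At least 1.5-fold on both arrays were 5 on the positive and 4 on the negative side, rules that 1.24% and 3% of all genes met. limma called 0 of them, as it called no probe of the table.

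Ligand genes gave little beside interferon gamma. Ifng itself stood at -1.41 and -2.12, a mean of -1.77 ± 0.50 (SD, n = 2), on the side opposite to the GTPases. The 7 measured type I interferon genes all had means between -0.37 and 0.18. In receptor signalling, the kinase gene Jak1 read 0.51 and 0.64 and Jak2 0.29 and 1.06. The feedback inhibitor gene Socs1 was negative at -0.72 and -0.30. Both arrays placed 6 of the 13 signalling and feedback genes above 0 and 3 below.

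Of 10 sensors and adaptors, 5 lay above 0 on both arrays and 1 below. Zbp1, a sensor of Z-form nucleic acid, read 0.67 and 1.27, or 0.97 ± 0.42 (SD, n = 2). Ikbke, a kinase that activates IRF proteins, read 0.52 and 1.00.

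The further interferon-induced genes fell on both sides. Samhd1, which depletes nucleotides, read 0.83 and 2.23, a mean of 1.53 ± 0.99 (SD, n = 2). Rtp4 stood at 1.42 ± 0.35, Trim30a at 0.93 ± 0.37 and the death-domain-associated protein gene Daxx at 0.75 ± 0.07 (all SD, n = 2). On the negative side were Ifitm2 at -1.24 ± 0.60 and Ifitm3 at -1.01 ± 0.24, both of which encode membrane proteins that block virus entry, and Ifi30, the gene of a lysosomal thiol reductase, at -0.97 ± 0.37 (all SD, n = 2). The chemokine genes Cxcl9 and Cxcl10, typical interferon gamma targets, were near 0 at 0.18 and 0.16 for Cxcl9 and 0.11 and -0.03 for Cxcl10. The 31 genes had a median of 0.245, with 16 above 0 on both arrays and 6 below. Known interferon-induced genes thus did not share 1 side.

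**Figure D5:**
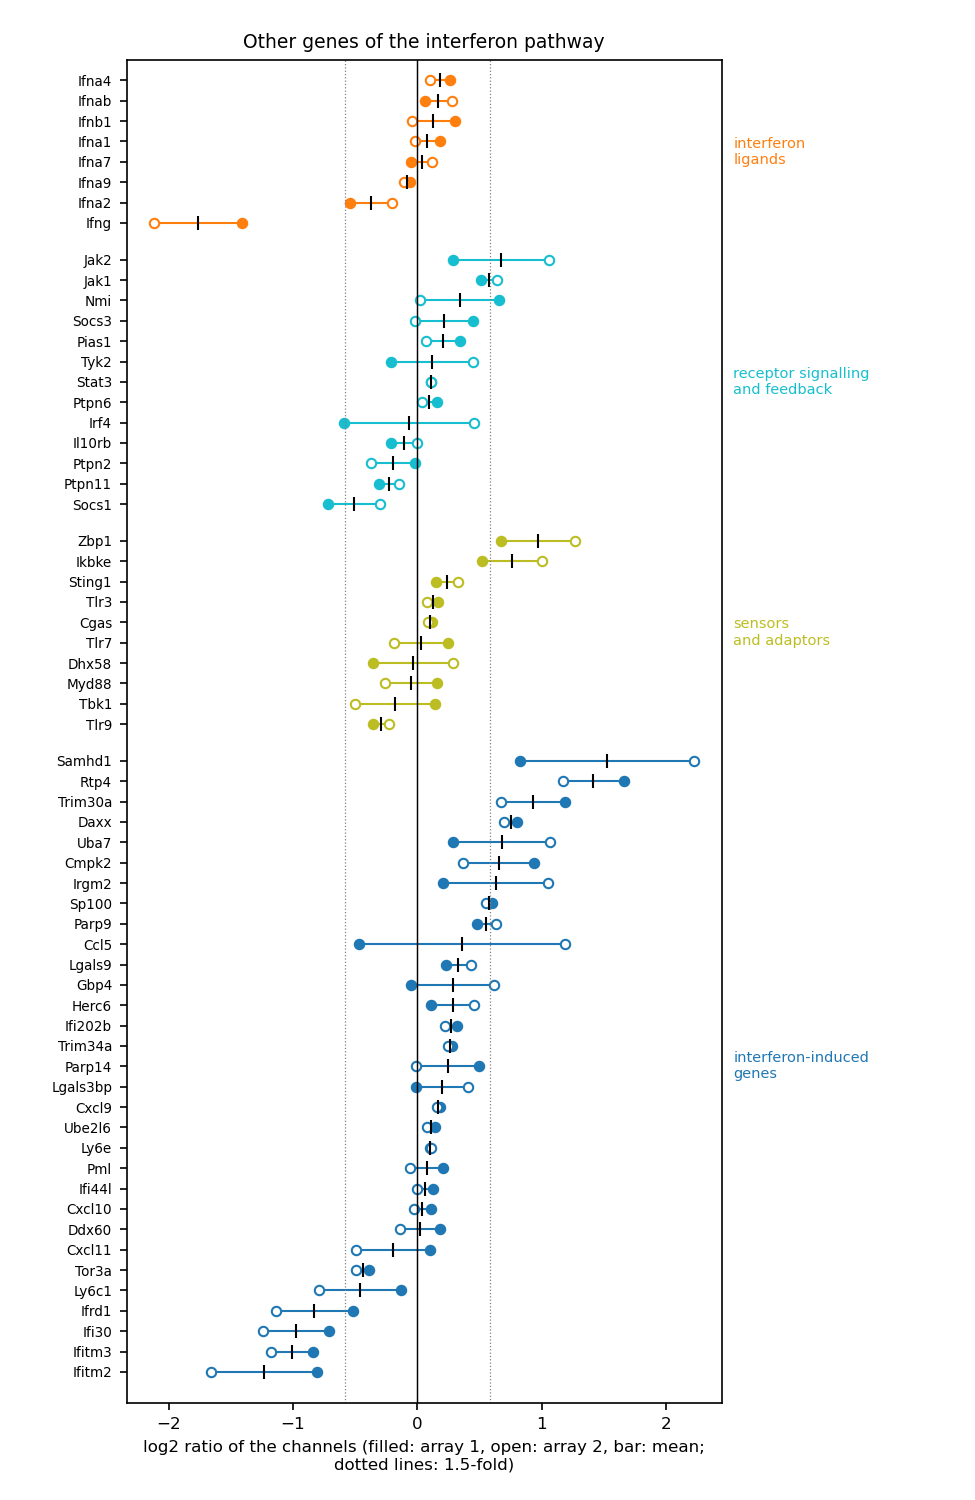
Log2 ratio of the channels for 62 other interferon pathway genes, by group and mean, with array 1 filled, array 2 open and a bar at the mean. Samhd1 and Rtp4 lie farthest right at means of 1.53 and 1.42, and Ifng lies farthest left at -1.77.

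Markers of cells that such a culture could hold were read beside the members. The 12 B cell markers had a median of 0.248, with 8 above 0 on both arrays and 2 below, or 66.7% and 16.7%. Over all genes these shares were 29.6% and 33.6%. The highest B cell markers were Cd72 (0.57 and 2.19) and Cd79b (0.67 and 1.62). Ms4a1 (0.11 and 0.08) and Pax5 (0.21 and -0.06) lay near 0, and Blk and Ebf1 were the 2 below. T cell markers were also on the positive side, with 8 of 11 above 0 on both arrays, 1 below and a median of 0.275. Dendritic cell markers had a median of -0.275 over 7 genes, natural killer cell markers -0.368 over 6, CD4 T cell markers 0.118 over 4, and macrophage and monocyte markers 0.005 over 14. The macrophage and monocyte markers lay on both sides, with 4 above 0 on both arrays and 3 below, or 28.6% and 21.4%. Ctss was the highest of them at 1.10 and 1.85, and Marco the lowest at -0.92 and -0.05. Irf5, Irf8 and Ifi204 are also expressed in myeloid or B cells. The part of other cell types in the members' ratios was not tested.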

How the data were processed

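The deposited table gives 1 log2 ratio per probe and array, with base 2 assumed from the values. The numerator, scanner, background correction and normalization are not given in the sources used here. Over all probes the median was 0.01 on array 1 and 0.02 on array 2, so a shift common to all genes would not be seen. No intensities were used, and the 2 arrays limit the precision.

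Of 21919 probes, 15998 had 1 symbol in the platform annotation, 288 had several and 5633 had none. Probes of a gene were averaged. limma 3.58.1 in R 4.3.3 fitted an intercept over all 21427 probes with 2 values (two-sided, Benjamini-Hochberg, 0.05), with 1 residual and 3.43 prior degrees of freedom, and was tested on simulated data. An exact permutation test over 2 arrays cannot give a two-sided p below 0.5, so none was run. Counts and medians have no test. Every member is named, with a mean and SD where both arrays reached 1.5-fold on one side. Of the other pathway genes, those past that rule are named, with Ifng and Jak1 whatever their values, and 1 further item is not reported here. Jak2, Socs1, Ikbke, Cxcl9, Cxcl10, Irgm2, Gbp4, Cd72, Cd79b, Ms4a1, Pax5, Blk, Ebf1, Ctss and Marco are further examples chosen after their values were seen. Members, lists and tests were chosen with earlier results of these data known. A planned comparison of protein sequences was not run. Motifs were searched with Python 3.11.15. Alternatives were other scalings, probe rules, variance priors, fold rules, a natural log base, a longer ISRE form and leaving out each array.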

Additional observations from a re-analysis of the deposited data

How the results depend on the processing

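Of 117 alternative values for the group counts, medians, calls and motif share, 21 moved beyond the spread between arrays (medians), by over 1.5 times (counts) or beyond the 95% binomial interval (motif share), and 96 did not. For medians that bar was wide where the arrays lay far apart. On single arrays the GTPase median was 0.37 to 1.19 against 0.83, and the receptor median 0.21 to 0.68 against 0.485. For the transcription factors the arrays lay close, so the bar was narrow and 0.46 against 0.475 counted as a move. Positive pathway genes, judged by the rule for counts, were 36 to 41 on single arrays against 29 and did not count as moved. No cause of a move was tested. A count on 1 array can only equal or exceed the count on both, so such moves were fixed in direction. Over all 14150 genes, 6671 were positive on array 1 and 6725 on array 2. All-gene shares were not computed for the negative and 1.5-fold counts on 1 array, or for the natural log reading. Those counts are therefore not read as a result about the members or pathway genes. On single arrays the members negative were 7 to 11 against 4 on both, those at least 1.5-fold positive were 12 to 16 against 6, and those at least 1.5-fold negative were 1 to 2 against 1. A 2-fold rule left 3 positive and 0 negative members, and reading the values as natural logs gave 10 positive. Among the other pathway genes single arrays gave 21 to 24 negative against 13, and 8 to 13 at least 1.5-fold positive against 5. The members' median was 0.37 without replicate 2 and 0.52 without replicate 1. Quantile normalization gave medians of 0.25 for the effectors, 0.83 for the ISG15 and TRIM set and 0.45 for the transcription factors, and median centring gave 0.46 for the last. On single arrays the effectors' median was 0.27 to 0.34, that of the ISG15 and TRIM set 0.755 to 0.79 and that of the transcription factors 0.31 to 0.325. The ISRE core extended by ACT was found in 16.2% of the listed genes with a window, against 54.1% for the core and 0.3% of all genes for the longer form. limma called 0 member probes under every prior, scaling and filter run, and 0 of all probes too except without moderation, where 241 of 21427 were called. Of 185 member means under other scalings or probe rules, 1 changed sign (Adar under median centring, -0.01). Among the members only Eif2ak2 had 2 probes, so the probe rules could alter no other member. Many of these means, and of the group values that did not move, were thus fixed in advance. On single arrays 10 of 37 genes had a value without the sign of their mean: Adar, Eif2ak2, Gbp2, Gbp3, Ifi204, Ifi27, Ifit2, Ifnar1, Irf3 and Isg20. Each ratio already pairs both stages on 1 array, and no further replicate block could be fitted with 1 group.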

Other observations

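Gbp2 had the largest difference between arrays among the members, 2.46 on the log2 scale, and ranked 2 of 14150 genes by how far array 2 lay above array 1. Igtp ranked 110 on that measure, Ifi27 114 and Ifnar1 155. In the opposite order, by how far array 1 lay above array 2, Eif2ak2 ranked 140, Ifih1 195 and Irf8 197. Ifna5, a type I interferon gene, had a value of -0.26 on array 2 and none on array 1, and entered no count.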
